A study of Mus musculus with 12 samples.

Results

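The 8 genes described here encode receptors and ligands of the neurotrophin and glial cell line-derived neurotrophic factor (GDNF) systems, and they were taken by symbol from the 23358 rows of a deposited gene count table. They are Ngfr, Bdnf, Ntrk2, Ntrk3, Gfra1, Gfra2, Ret and Gdnf. All 8 were in the table, and 7 of them reached 1 CPM (a read count scaled to library size) in at least 2 of the 12 libraries, the level required for testing. Ntrk2 did not reach it. The genes were chosen by name, with the fall of the Ngfr and Gfra2 levels with BMP2 on day 6 already known, so the day 6 BMP2 and day comparisons of these genes are given as descriptions without a test.

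The libraries came from MC3T3 sc4 cells, a subclone of a pre-osteoblast line from mouse calvaria (strain C57BL/6, passage 12), and were made from total RNA with an mRNA library kit. Cells grown in osteogenic medium with ascorbic acid and β-glycerol phosphate received 5 µM GSK126, an inhibitor of the histone methyltransferase EZH2, or no GSK126. Each was combined with 0, 10 or 50 ng/ml BMP2, a bone morphogenetic protein, and RNA was taken on day 6 or day 1, with the medium and agents renewed once in between. Each of the 12 conditions had 1 library, so the spread comes from libraries that share a treatment. Whether these were separate cultures is not in the labels, and the p-values reflect just the variation among the libraries at hand, which may be technical. That variation is what remains after the GSK126 and BMP2 effects of each day are added up. It therefore includes any change of the GSK126 effect with BMP2 dose, which cannot be told apart from variation between replicates.

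Neurotrophins are secreted growth factors best known for supporting neurons. BDNF binds the receptor tyrosine kinase TrkB, encoded by Ntrk2, neurotrophin-3 binds TrkC, encoded by Ntrk3, and all neurotrophins bind the p75 receptor encoded by Ngfr, which also marks neural crest cells and mesenchymal progenitors. GDNF family ligands bind a membrane-anchored co-receptor, chiefly GFRα1 for GDNF and GFRα2 for neurturin, and the complex activates the kinase RET. EZH2 is the enzyme of the Polycomb complex that methylates lysine 27 of histone H3, and CpG-rich promoters are its usual sites.

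Promoter sequence is shown for 3 genes that differ in behaviour: Ngfr, with the widest range of levels, Gfra1, which was higher in every GSK126 library, and Ntrk2, which stayed near the detection limit. The windows run from 250 bases before to 50 bases after the transcription start (RefSeq, GRCm38.p6), on the gene's strand, with each CpG in capitals. Ngfr is at chr11:95587649-95587948, minus strand, Ntrk2 at chr13:58806319-58806618, plus strand, and Gfra1 at chr19:58455349-58455648, minus strand.
Ngfr: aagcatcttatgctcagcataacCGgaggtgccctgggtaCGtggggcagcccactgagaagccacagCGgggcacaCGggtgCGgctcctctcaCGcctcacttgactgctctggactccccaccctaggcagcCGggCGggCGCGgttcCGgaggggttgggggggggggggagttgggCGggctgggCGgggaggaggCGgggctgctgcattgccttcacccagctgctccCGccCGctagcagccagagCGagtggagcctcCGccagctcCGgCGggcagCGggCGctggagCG
Ntrk2: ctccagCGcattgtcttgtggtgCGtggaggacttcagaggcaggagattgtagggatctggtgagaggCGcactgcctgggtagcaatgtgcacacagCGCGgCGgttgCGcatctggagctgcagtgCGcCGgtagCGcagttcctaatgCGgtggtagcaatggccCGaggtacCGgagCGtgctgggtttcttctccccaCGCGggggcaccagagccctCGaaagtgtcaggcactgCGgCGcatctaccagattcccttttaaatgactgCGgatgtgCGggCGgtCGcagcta
Gfra1: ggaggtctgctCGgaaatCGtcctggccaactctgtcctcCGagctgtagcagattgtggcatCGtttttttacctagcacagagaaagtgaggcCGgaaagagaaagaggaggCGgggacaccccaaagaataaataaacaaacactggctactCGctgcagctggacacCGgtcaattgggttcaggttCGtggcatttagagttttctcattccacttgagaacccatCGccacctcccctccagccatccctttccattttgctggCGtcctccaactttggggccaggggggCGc
The Ngfr and Ntrk2 windows held 23 CpGs each, more than 78.5% of the 32851 RefSeq windows, whose median was 7. The Gfra1 window held 12, more than 60.4% of the windows. The GC content was 71.7% for Ngfr, 61.3% for Ntrk2 and 54.0% for Gfra1, against a median of 52.7% over all windows. Ngfr and Ntrk2 thus had the same CpG count, while their highest levels over the 12 libraries were 14.9 and 0.0468 RPKM (reads scaled by gene length and library size). The RUNX core TGTGGT, searched on both strands as TGTGGT or ACCACA, was present in the Ntrk2 window and absent from the Ngfr and Gfra1 windows, and 16.8% of all windows held it. The BMP-SMAD motif GGCGCC (11.9% of all windows) and the E-box CACGTG (7.15%), each its own reverse complement, were in none of the 3 windows. Of the 8 genes 5 had windows, 12 in all, and a Bdnf window not shown here held GGCGCC.

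Library totals ranged from 74301112 to 113744802 counts. All 195176 counts above 0 were even, so read numbers are given as pairs, and the level of 3 pairs was 0.0486 to 0.0923 CPM. All levels below are CPM after scaling by the trimmed mean of M values (TMM) unless RPKM is named, and intervals, exact 95% Poisson for a level and exact conditional for a ratio of 2 libraries, cover counting error only. Rn45s, a ribosomal RNA precursor, made up 13.1% to 21.66% of a library on day 6 and 8.96% to 11.71% of one on day 1. Its part in the day differences was not tested. The 6 osteoblast markers (Runx2, Sp7, Col1a1, Alpl, Ibsp, Bglap) were detected in every day 6 library, while Bglap had 0 to 13 pairs on day 1. The summed level of the 6 was 29200 to 81100 CPM on day 6 and 18600 to 23100 CPM on day 1. Most of it was Col1a1, at 28600 to 75100 CPM on day 6 and 18500 to 22700 CPM on day 1. Because p75 also marks Schwann cells and neural crest, 7 markers of these cells were read as well. They summed to 8.69 to 14.7 CPM on day 6 and 9.74 to 12.0 CPM on day 1, mostly from S100b, while the defining factors Sox10 and Foxd3 had at most 4 and 1 pairs in any library. The 7 neuronal markers summed to no more than 0.49 CPM in any library.

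**Figure D1:**
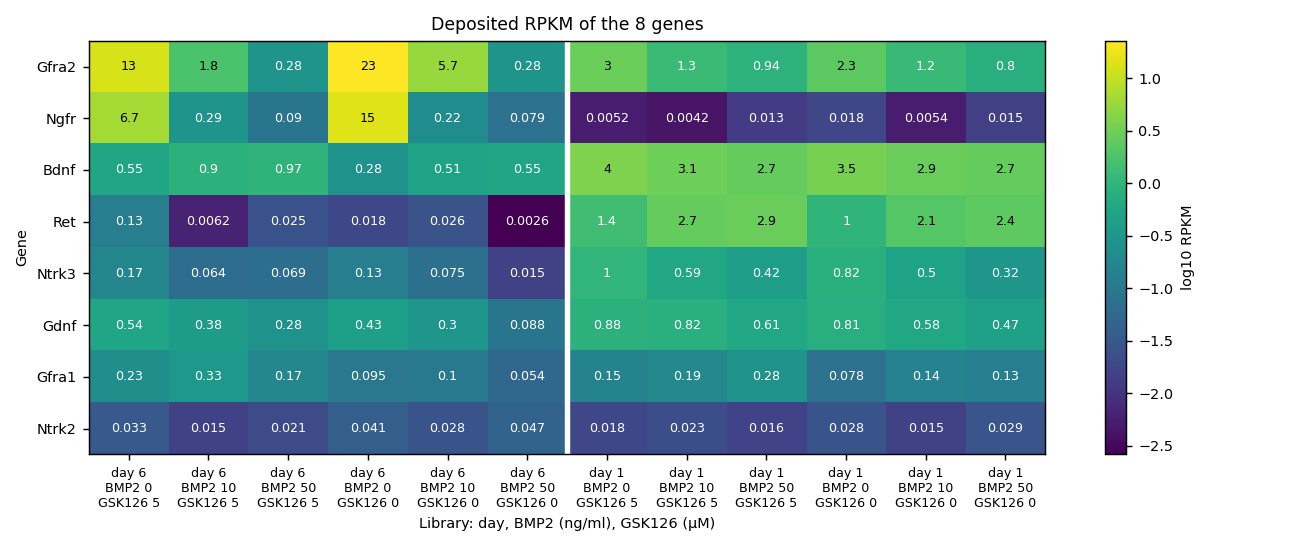
Deposited RPKM of the 8 genes in the 12 libraries, day 6 left of the white line and day 1 right of it, with GSK126 before no GSK126 within each day and BMP2 dose running low to high. Gfra2 and Ngfr led in the day 6 libraries without BMP2, up to 22.9 and 14.9 RPKM, while Bdnf and Ret were among the highest on day 1.

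Per transcript length, the order of the genes changed with the day. In the day 6 vehicle library Gfra2 led at 22.9 RPKM, followed by Ngfr at 14.9, Gdnf at 0.435, Bdnf at 0.281, Ntrk3 at 0.128, Gfra1 at 0.0947, Ntrk2 at 0.0413 and Ret at 0.0185 RPKM. The counting intervals of the first 4 did not overlap their lower neighbour, and those of neighbours from Ntrk3 down to Ret did. In the day 1 vehicle library Bdnf led at 3.52 RPKM, followed by Gfra2 at 2.3, Ret at 1.0, Ntrk3 at 0.82, Gdnf at 0.809, Gfra1 at 0.0777, Ntrk2 at 0.0275 and Ngfr at 0.0184 RPKM. Here Ret, Ntrk3 and Gdnf overlapped their neighbours, as did Gfra1, Ntrk2 and Ngfr, and the other steps were clear of counting error. With 50 ng/ml BMP2 and no GSK126 on day 6, Bdnf was the highest of the 8 genes at 0.554 RPKM, above Gfra2 at 0.283 RPKM and Ngfr at 0.079 RPKM.

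**Figure D2:**
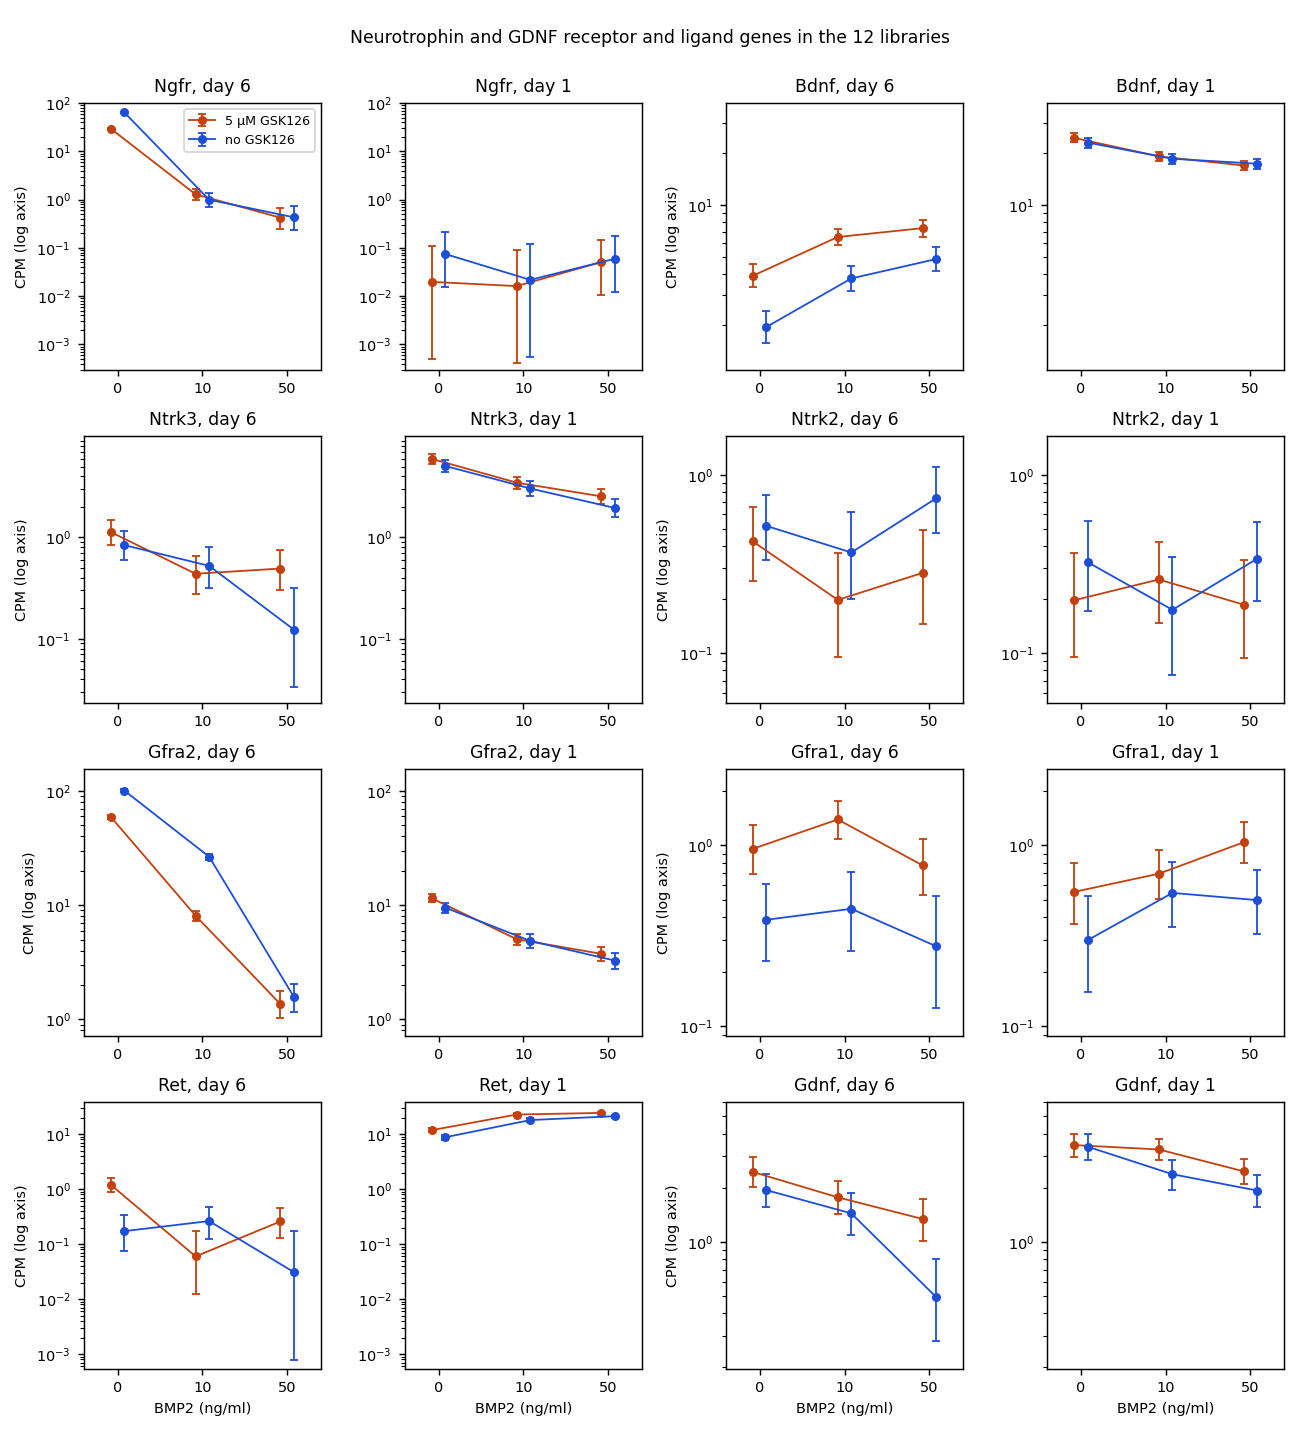
TMM-scaled CPM (log axis) of each gene against BMP2 dose (ng/ml), with the day 6 panel left of the day 1 panel; points are single libraries with exact 95% Poisson intervals, orange with 5 µM GSK126 and blue without. Ngfr and Gfra2 were far lower with BMP2 on day 6, Ret was near its detection limit on day 6, and Gfra1 was higher with GSK126 at each dose.

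Bdnf (chr2:109674700-109727043, plus strand, mm10), the ligand of TrkB, was lower on day 6 than on day 1 in all 6 treatments. On day 6 it was at 3.89, 6.53 and 7.35 CPM with GSK126 and at 1.96, 3.75 and 4.86 CPM without it, at 0, 10 and 50 ng/ml BMP2. On day 1 it was at 24.6, 19.2 and 17.0 CPM with GSK126 and at 23.1, 18.6 and 17.4 CPM without it. On day 6 every GSK126 library was above its match without GSK126, and levels were higher at each BMP2 dose than without BMP2. On day 1 the order with BMP2 was the opposite, and the ranges with and without GSK126 overlapped. The vehicle libraries differed by a ratio of 0.085 (0.0678 to 0.106), day 6 over day 1. Averaged over treatments, day 6 minus day 1 was -2.19 on the log2 scale, as a description.

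Gdnf (chr15:7811011-7837575, plus strand), the ligand of GFRα1 and RET, varied least among the 6 genes whose mean level was over 1 CPM. It stood at 2.45, 1.77 and 1.34 CPM with GSK126 and at 1.94, 1.44 and 0.492 CPM without it on day 6. On day 1 it stood at 3.46, 3.27 and 2.47 CPM with GSK126 and at 3.39, 2.38 and 1.93 CPM without it. Levels were lower at each higher BMP2 dose in all 4 series, and the GSK126 library was above its match in all 6 pairs, although the ranges overlapped on both days.

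Ngfr (chr11:95568821-95587698, minus strand), the p75 receptor, was detected by 1 to 3 pairs in each of the 6 day 1 libraries, at or under the 3-pair level. On day 6 it was at 29.6, 1.29 and 0.423 CPM with GSK126 and at 64.3, 0.996 and 0.431 CPM without it, at 0, 10 and 50 ng/ml BMP2. Only the 2 day 6 libraries without BMP2 were above 2 CPM. In the vehicle libraries the day 6 over day 1 ratio was 861, with a wide interval of 294 to 4180 because the day 1 library held 3 pairs. With BMP2 on day 6 the level relative to no BMP2 was 0.0155 (0.0109 to 0.0213) at 10 ng/ml and 0.0067 (0.00366 to 0.0113) at 50 ng/ml without GSK126. With GSK126 these ratios were 0.0438 (0.0336 to 0.0562) and 0.0143 (0.00845 to 0.0227). The 14 to 65 pairs left with BMP2 still gave 7.21 to 79.9 times the day 1 level of the same treatment, although each day 1 value rests on no more than 3 pairs. In bulk RNA, fewer cells that express a gene and less RNA in each cell cannot be told apart.

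Ntrk3 (chr7:78192114-78577838, minus strand), the receptor of neurotrophin-3, had 1.13, 0.438 and 0.493 CPM with GSK126 and 0.84, 0.524 and 0.123 CPM without it on day 6. Day 1 values were 5.95, 3.47 and 2.54 CPM with GSK126 and 5.06, 3.04 and 1.95 CPM without it. The day 6 and day 1 ranges did not overlap, and every library with BMP2 was below its match without BMP2. Ntrk2 (chr13:58806596-59129967, plus strand), the receptor of BDNF, had 10 to 24 pairs on day 6 and 8 to 17 on day 1, or 0.199 to 0.739 CPM and 0.175 to 0.339 CPM. These ranges overlapped between days, and between GSK126 and no GSK126 on each day, and Ntrk2 was not tested at this depth.

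Gfra2 (chr14:70890130-70979838, plus strand), the co-receptor for neurturin, had the highest RPKM of the 8 genes in both day 6 libraries without BMP2. It was at 59.5, 8.1 and 1.36 CPM with GSK126 and at 101, 26.6 and 1.57 CPM without it on day 6. On day 1 it was at 11.5, 5.04 and 3.75 CPM with GSK126 and at 9.51, 4.87 and 3.27 CPM without it. Each higher BMP2 dose had a lower level in all 4 series, and the steps were larger on day 6. Day 6 was above day 1 at 0 and 10 ng/ml BMP2 and below it at 50 ng/ml. Relative to no BMP2, the day 6 level was 0.136 (0.122 to 0.151) at 10 ng/ml and 0.0229 (0.0173 to 0.0297) at 50 ng/ml with GSK126. Without GSK126 the same ratios were 0.263 (0.246 to 0.282) and 0.0156 (0.0116 to 0.0205). At 10 ng/ml Ngfr had thus already lost most of its level, while Gfra2 kept a larger part of its own.

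Gfra1 (chr19:58236692-58454466, minus strand), the co-receptor for GDNF, was low throughout, with 9 to 70 pairs. It was at 0.957, 1.39 and 0.775 CPM with GSK126 and at 0.388, 0.446 and 0.277 CPM without it on day 6. On day 1 it was at 0.553, 0.697 and 1.04 CPM with GSK126 and at 0.299, 0.546 and 0.498 CPM without it. On both days the lowest GSK126 library was above the highest library without it, although on day 1 only by 0.553 against 0.546 CPM, well inside counting error. GENCODE M21 lists an opposite-strand gene with overlapping exons for Gfra1 (Gm16277) and for Bdnf (Gm45346). The strand setting of the counting is not given in the sources used here, so reads of these genes and their antisense partners cannot be told apart.

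Ret (chr6:118151748-118197744, minus strand), the signalling kinase of the GDNF receptors, had its high levels on day 1. On day 6 it was at 1.2, 0.0597 and 0.258 CPM with GSK126 and at 0.172, 0.262 and 0.0308 CPM without it, from 1 to 54 pairs. On day 1 it was at 11.8, 22.7 and 24.3 CPM with GSK126 and at 8.77, 18.0 and 21.2 CPM without it. The day 6 library with GSK126 and no BMP2 was the highest of its day, at 6.97 times its match (3.3 to 17.0), but at 10 ng/ml BMP2 the GSK126 library was lower, at 0.228 times its match (0.0403 to 0.885). Day 6 over day 1 in the vehicle libraries was 0.0197 (0.00842 to 0.0392).

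GSK126 on day 6 was tested over its 3 matched pairs of libraries, 1 at each BMP2 dose. Bdnf and Gfra1 rose and Gfra2 fell, 3 of the 7 genes tested, against 28.3% of all 12056 tested genes, of which 14.3% were higher and 14% lower. A share of this size in 7 genes is near that background. The test was the quasi-likelihood test of edgeR, adjusted by Benjamini-Hochberg over all tested genes, with one additive fit to the 12 libraries, and changes are log2 fold changes with their standard error. Bdnf rose by 0.79 ± 0.084 (adjusted p = 0.00099 in edgeR's test), higher in 3 of 3 pairs, at 1.99, 1.74 and 1.51 times its matches at 0, 10 and 50 ng/ml BMP2. Gfra1 rose by 1.48 ± 0.22 (adjusted p = 0.0039, edgeR), also in 3 of 3 pairs, at 2.47, 3.13 and 2.8 times its matches. Gfra1 passed the expression filter only through 2 libraries, both with GSK126, at 1.39 CPM on day 6 and 1.04 CPM on day 1. The filter thus favoured a rise with GSK126 for this gene, although the call also held with no filter (adjusted p = 0.0034, edgeR). Gfra2 fell by 1.01 ± 0.23 on the log2 scale (adjusted p = 0.02, edgeR), lower in 3 of 3 pairs. The size of the Gfra2 difference varied with dose, at 0.59 (0.563 to 0.619) and 0.305 (0.271 to 0.343) times its matches at 0 and 10 ng/ml and 0.867 (0.585 to 1.29) at 50 ng/ml. Without the day 6 library given 10 ng/ml BMP2 alone, the Gfra2 change was -0.56 and no longer called (adjusted p = 0.051, edgeR), and without its GSK126 match it was -0.57 and called (adjusted p = 0.0498, edgeR).

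The other 4 genes did not pass in the day 6 GSK126 comparison. Ngfr stood at -0.49 ± 0.29 (adjusted p = 0.24, edgeR), and its matched ratios were 0.46 (0.43 to 0.49) without BMP2 but 1.3 (0.858 to 1.99) and 0.981 (0.461 to 2.13) at 10 and 50 ng/ml. The Ngfr difference without BMP2 therefore exceeds counting error but has no library of the same condition to set a spread. Ret stood at 1.55 ± 0.76 (adjusted p = 0.17, edgeR), and its value was 2.83 without either library of the 10 ng/ml pair (adjusted p = 0.0013 and 0.0012, edgeR). It was -0.04 without the library given GSK126 alone and -0.03 without the vehicle library (adjusted p = 0.98 in both, edgeR), and Ret passed the expression filter through its day 1 levels. Gdnf stood at 0.61 ± 0.23 (adjusted p = 0.092, edgeR) and Ntrk3 by 0.51 ± 0.33 (adjusted p = 0.28, edgeR). Gdnf was higher in 3 of 3 pairs and Ntrk3 in 2 of 3.

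On day 1 none of the 7 genes passed the threshold with GSK126, and 0% of all tested genes did. At an unadjusted p under 0.05 there were 755 genes in edgeR's test, Gfra1 alone among the 7, and DESeq2 called 6 genes, none of the 7. Gfra1 had the largest fitted value with GSK126 on day 1 other than Ngfr, which rests on single pairs, at 0.76 ± 0.22 (adjusted p = 0.79, unadjusted p = 0.0097, edgeR), higher in 3 of 3 pairs. Bdnf stood at 0.04 ± 0.075 on day 1 (adjusted p = 0.96, edgeR). In a fit to the day 1 libraries alone, Ret passed with 0.31 (adjusted p = 0.0028, edgeR), beside 16.2% of all genes in that fit, against 0.32 ± 0.34 (adjusted p = 0.9) in the fit to all 12.

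The GSK126 effect itself differed between the days for Bdnf, by 0.75 ± 0.11 on the log2 scale, day 6 minus day 1 (adjusted p = 0.0088, edgeR). This was 1 of 7 genes, against 10.5% of all tested genes (3.94% higher, 6.52% lower). Leaving out any 1 of the 6 day 1 libraries moved the adjusted p of Bdnf to between 0.051 and 0.059, with a change of at least 0.66. Gfra2 gave -1.19 ± 0.33 for the same difference (adjusted p = 0.066, edgeR) and Gfra1 gave 0.71 ± 0.31 (adjusted p = 0.2, edgeR), neither past the threshold.

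**Figure D3:**
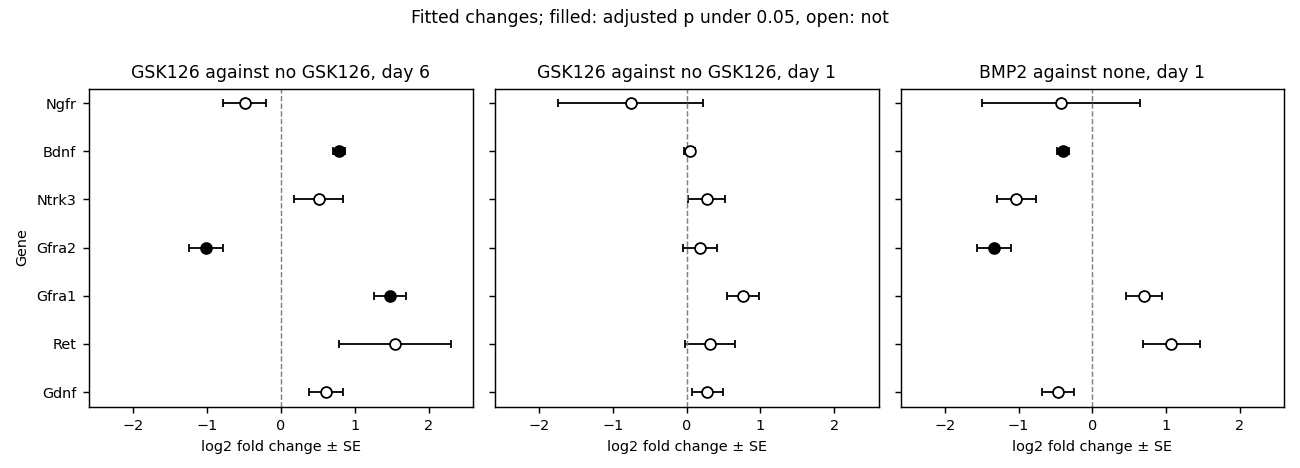
Log2 fold change (± standard error of the edgeR fit) of the 7 tested genes with GSK126 on day 6 (left), with GSK126 on day 1 (middle) and with BMP2 on day 1 (right); filled points had an adjusted p under 0.05 over all 12056 tested genes. Bdnf at 0.79, Gfra1 at 1.48 and Gfra2 at -1.01 are filled for GSK126 on day 6, and Bdnf at -0.4 and Gfra2 at -1.33 for BMP2 on day 1.

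For BMP2 on day 1, the average of the 10 and 50 ng/ml effects was tested over 4 matched pairs that share 2 libraries without BMP2. Gfra2 and Bdnf fell, 2 of 7 genes, against 3.66% of all tested genes, of which 1.8% were higher and 1.86% lower. Gfra2 fell by 1.33 ± 0.23 on the log2 scale (adjusted p = 0.03, edgeR) and Bdnf fell by 0.4 ± 0.079 (adjusted p = 0.044, edgeR), both in 4 of 4 pairs. Ret stood at 1.07 ± 0.38 (adjusted p = 0.19, edgeR), higher in 4 of 4 pairs, and Ntrk3 at -1.03 ± 0.26 (adjusted p = 0.086, edgeR), lower in 4 of 4. Gfra1 stood at 0.7 ± 0.24 (adjusted p = 0.17, edgeR), Gdnf at -0.47 ± 0.22 (adjusted p = 0.3, edgeR) and Ngfr, from its 1 to 3 pairs, at -0.43 ± 1.07 (adjusted p = 0.86, edgeR).

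Several of these day 1 calls differed between fits. When the 6 day 1 libraries were fitted alone, Ret (1.07, adjusted p = 4.7e-08), Ntrk3 (-1.02, adjusted p = 1.1e-05), Gfra2 (-1.33, adjusted p = 1.3e-07), Bdnf (-0.4, adjusted p = 1.8e-05) and Gdnf (-0.46, adjusted p = 0.016) all passed in edgeR's test, beside 38.9% of all genes in that fit. In the fit to all 12, leaving out any 1 day 1 library ended the Gfra2 call (adjusted p of 0.14 to 0.41) and the Bdnf call (0.18 to 0.5), with Gfra2 at -1.41 to -1.25 and Bdnf at -0.45 to -0.36. The Bdnf call was also lost without either day 6 library given 10 ng/ml BMP2 (adjusted p = 0.078 and 0.079, edgeR).

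For BMP2 on day 6 the fitted values are a description, since this is the contrast in which Ngfr and Gfra2 were noticed. Ngfr stood at -5.97, Gfra2 at -4.04, Ret at -2.1, Ntrk3 at -1.35, Gdnf at -0.88, Gfra1 at 0.01 and Bdnf at 0.96 on the log2 scale, with BMP2 over without. Of all tested genes, 28.7% passed in this comparison (13.3% higher, 15.5% lower). Ngfr, Gfra2, Ntrk3 and Gdnf were lower in 4 of 4 matched pairs and Bdnf higher in 4 of 4. The Ret value moved between -3.27 and -0.14 when single libraries were left out and rests on few pairs. Over the same libraries the osteoblast markers summed to 38900 to 81100 CPM with BMP2 and 29200 to 37900 CPM without it. Most of each sum was Col1a1, and the part of the osteoblast markers in the result was not tested. The Schwann cell and neural crest markers summed to 8.69 to 13.3 CPM with BMP2 and 10.3 to 14.7 CPM without it, and the part of these markers in the result was not tested either.

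Day 6 against day 1, averaged over treatments, gave 6.26 for Ngfr, 1.09 for Gfra2, 0.1 for Gfra1, -0.93 for Gdnf, -2.19 for Bdnf, -2.7 for Ntrk3 and -6.29 for Ret, again without a test. Of all tested genes, 78% passed in this comparison (40.5% higher, 37.5% lower). Ngfr was higher in 6 of 6 treatments, Gfra2 in 4 of 6 and Gfra1 in 3 of 6, while Gdnf, Bdnf, Ntrk3 and Ret were lower in 6 of 6. RET and its co-receptor for neurturin thus had opposite courses in vehicle, with Ret at 0.0197 and Gfra2 at 10.6 (9.55 to 11.8) times the day 1 level.

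Across the 12 libraries the log2 CPM of the genes moved in 2 broad patterns, described here by Pearson's r over libraries that share days and treatments. Ntrk3 correlated with Gdnf (r = 0.92) and Ret (r = 0.91), and Bdnf with Ret (r = 0.83). Ngfr ran against Bdnf (r = -0.91) and with Gfra2 (r = 0.71). Gfra1 stood outside both, with r between -0.02 and 0.28 to the other 6 tested genes. The 2 patterns match the direction of the average day difference. Bdnf, Gdnf, Ntrk3 and Ret were lower on day 6, and Ngfr and Gfra2 were higher. No r within a day was computed. With BMP2 on day 1, Ret (1.07) and Ntrk3 (-1.03) had opposite signs despite their high r. The most similar tested genes were sought with duplicated names and Gm, Rik, LOC, Mir and accession-type names left out. Those most like Ngfr were Pcdhb14 (r = 0.975), Tceanc (0.973) and Serpine2 (0.966). Those most like Gfra2 were Cdk14 (r = 0.983), Nov (0.982) and Svep1 (0.981), and those most like Bdnf were Slc6a6 (0.985), Trib1 (0.985) and Pcgf5 (0.981). For Ret they were Thop1 (r = 0.985), Tcof1 (0.978) and Ptbp1 (0.977), for Ntrk3 Ccdc136 (0.984), Dtna (0.982) and Alcam (0.981), and for Gdnf Adar (0.958), Arhgap22 (0.957) and Hdgfrp3 (0.95).

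Of 12 further neurotrophin ligands and receptors, 4 passed the expression filter. This list and those described below were chosen with earlier results of these data known, so their counts are descriptions. Ntf3, the ligand of TrkC, had 0 to 4 pairs on day 6 and 0 on day 1. With GSK126 on day 6, 2 of the 4 rose and none fell, beside 14.3% of all tested genes higher and 14% lower. The median was 0.36, against 0 over all tested genes to 2 decimals. The 2 that rose were Sort1, encoding sortilin, a partner of p75 for pro-neurotrophins (1.53 ± 0.17, adjusted p = 0.0013, edgeR), and its relative Sorcs2 (0.82 ± 0.17, adjusted p = 0.012, edgeR). The Sorcs2 call was lost without either day 6 library given 10 ng/ml BMP2 (adjusted p = 0.053 in both, edgeR) and in the fit to day 6 alone (0.077). Sorcs2 reached 96.4 to 252 CPM on day 6 and 41.4 to 55.7 CPM on day 1. With BMP2 on day 1 none of the 4 passed, beside 3.66% of all tested genes.

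Of 10 further GDNF family ligands and receptors, 5 passed the filter. Gfra3 and Gfral had no pairs in any library, and Gfra4 had at most 2. The neurturin gene Nrtn had 4 to 16 pairs on day 6 and 2 to 7 on day 1, with 16 in the day 6 library given GSK126 alone and 4 in the vehicle library, the 2 libraries with the most Gfra2. With BMP2, Sdc3, a heparan sulfate proteoglycan that can bind GDNF, rose by 0.74 ± 0.075 on day 6 (adjusted p = 0.00083, edgeR) and by 0.74 ± 0.075 on day 1 (adjusted p = 0.0054, edgeR). The day 1 call was lost without any of 5 of the 6 day 1 libraries. Gdf15, a distant relative whose receptor GFRAL was not detected, rose with GSK126 on day 6 by 0.76 ± 0.15 (adjusted p = 0.012, edgeR). It was the only one of the 5 to pass, beside 28.3% of all tested genes. Gdf15 was not called in the fit to day 6 alone (adjusted p = 0.075, edgeR). It also rose with BMP2 on day 6 by 0.56 ± 0.17 (adjusted p = 0.044, edgeR), a call lost without the vehicle library (0.2, adjusted p = 0.17, edgeR) and without any of 9 other libraries, and also with day 6 alone (0.15) and with library size alone (0.063).

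Of 19 tested adaptors that carry the signal of Trk, p75 and RET receptors, 2 rose and none fell with GSK126 on day 6 (median -0.01), beside 14.3% and 14% of all tested genes. They were Gab2 (0.57 ± 0.088, adjusted p = 0.0042, edgeR) and Irs2 (0.51 ± 0.16, adjusted p = 0.049, edgeR). The Irs2 call was lost without any of 8 of the 12 libraries, in the fit to day 6 alone (adjusted p = 0.17, edgeR) and with library size alone (0.066). With BMP2 on day 6, 5 rose and 3 fell (median 0.11), beside 13.3% and 15.5% of all tested genes. The largest were Gab2 at 0.83, Shc2 at 0.75, Sh2b2 at 0.71 and Dok4 at -0.66, and the p75-binding partners Ngfrap1, at -0.61 (adjusted p = 0.0018, edgeR), and Maged1, at -0.23 (adjusted p = 0.017, edgeR), fell too. The Dok4 call was lost without the vehicle library (-0.31, adjusted p = 0.15, edgeR) or either library of the 10 ng/ml pair, and both Dok4 (0.12) and Shc2 (0.052) missed the threshold in the fit to day 6 alone. With BMP2 on day 1, Ripk2, a kinase that binds p75, rose by 0.46 ± 0.072 (adjusted p = 0.023, edgeR). It was the only one of the 19 called, beside 1.8% of all tested genes higher and 1.86% lower. Leaving out any day 1 library ended that call.

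Genes that respond to ERK, a pathway shared by these and many other receptors, were read from a list of 18, of which 17 were tested. The list was chosen with earlier results of these data known, so its counts are descriptions and not independent evidence. With GSK126 on day 6, 10 rose and 1 fell, with a median of 0.38, beside 14.3% of all tested genes higher and 14% lower. Examples are Spry4 (1.57 ± 0.29, adjusted p = 0.0091, edgeR), which encodes a feedback inhibitor, Fosl1 (1.06 ± 0.11, adjusted p = 0.00083, edgeR), an AP-1 subunit, Dusp4 at 0.95, a phosphatase, and Etv4 at 0.73, an ETS factor. Egr2, named as the single gene that fell, was at -0.31 (adjusted p = 0.021, edgeR). With BMP2, 7 rose and 2 fell on day 6 (13.3% and 15.5% of all tested genes), with Junb at 1.39, Etv4 at 1.18 and Fosl1 at 1.16 against Etv1 at -1.23 and Spry1 at -0.99. On day 1, 4 rose and none fell, beside 1.8% and 1.86% of all tested genes. These were Junb at 0.76, Etv4 at 0.69, Fosl1 at 0.54 and Spry2 at 0.51, each call lost without any single day 1 library. The Spry4 call with GSK126 was lost without either library of the 10 ng/ml pair (1.31, adjusted p = 0.051 and 0.052, edgeR). In the fit to day 6 alone Spry4 (adjusted p = 0.059), Dusp4 (0.075) and Etv4 (0.082) were not called in edgeR's test. That fit called 7.91% of all genes. The call of Etv1 with BMP2 on day 6 was lost without any of 10 libraries, with a value of -0.4 without the vehicle library, and in the fit to day 6 alone (adjusted p = 0.11, edgeR).

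**Figure D4:**
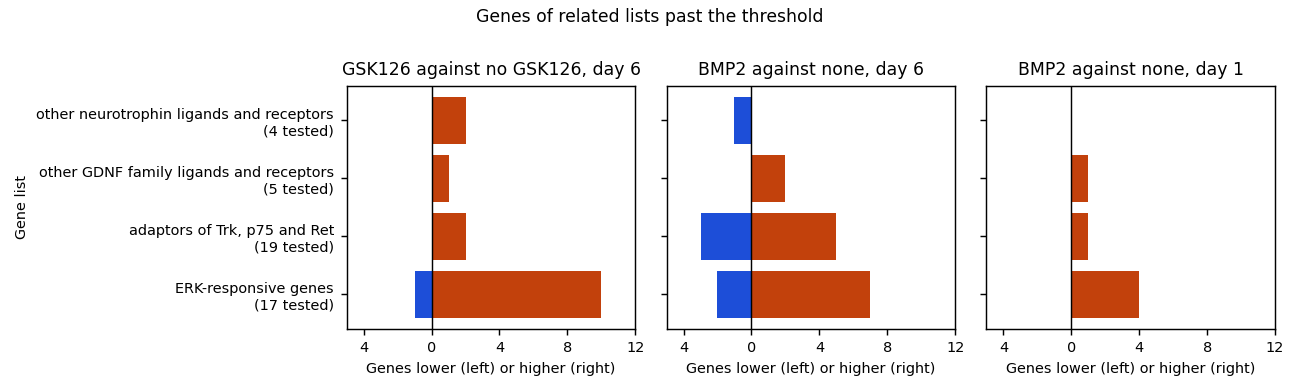
Number of genes of 4 related lists with an adjusted p under 0.05, lower to the left of 0 and higher to the right, with GSK126 on day 6 (left), BMP2 on day 6 (middle) and BMP2 on day 1 (right). The ERK-responsive genes gave the most calls, 10 higher and 1 lower with GSK126 on day 6, and the other neurotrophin genes gave none with BMP2 on day 1. The 4 lists were chosen with earlier results of these data known.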

How the data were processed

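Titles assigned the 12 libraries to 1 condition each. The authors deposited a single table that holds, for every library, a gene count and an RPKM value. The submitters' processing notes list bcl2fastq, TopHat2 2.0.6, HTSeq and the build mm10. The strand setting and the annotation used were not given in the sources used here. The deposited counts were tested as they stood. The deposited RPKM values, reads scaled by the authors for gene length and library total, served to compare levels between genes. All columns of per-library values were used. Counts even throughout were halved to pairs for Poisson and exact ratio intervals (95%, scipy 1.17.1), which cover counting error only.

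The 12056 genes that reached 1 CPM in 2 or more libraries were normalised by TMM and tested with edgeR 4.0.16 (R 4.3.3) quasi-likelihood tests and Benjamini-Hochberg adjustment at 0.05. The fit held day, GSK126 within day and each BMP2 dose within day (8 coefficients, 4 residual degrees of freedom). The fit was tested on simulated data. Alternatives were DESeq2 1.42.0, library size alone, no filter, halved counts, each day alone and leaving out each library. Matched pairs share a day and the level of the other agent, and those of BMP2 doses share the library without BMP2. Correlations used log2 CPM with a prior count of 2.

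The members, the 4 related lists and the markers were chosen with earlier results of these data known. All 8 members are named, with at most 4 called genes per list and comparison by size of change. For each member over 1 CPM on average, the 3 genes with the highest r are named, outside the name types left out above. Egr2, Ngfrap1, Maged1 and Spry1 were added after their values were seen. Leukocyte, endothelial, adipocyte and muscle markers were also read, and summed to at most 2.49, 0.284, 0.734 and 10.7 CPM in any library. Protein sequences were not used here, and some genes of the related lists are not reported here. Coordinates of genes are those of the deposited table.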

Additional observations from a re-analysis of the deposited data

Results flagged for a closer look

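The GSK126 effect on Bdnf, the ligand of TrkB, differed between the days in a test of the difference itself. It was larger on day 6 than on day 1 by 0.75 ± 0.11 on the log2 scale (adjusted p = 0.0088, edgeR's quasi-likelihood test, Benjamini-Hochberg adjusted), with 0.79 on day 6 and 0.04 on day 1.

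Bdnf moved in opposite directions with BMP2 on the 2 days in every matched pair of libraries. The fitted change was 0.96 on day 6, higher in 4 of 4 pairs, and -0.4 on day 1, lower in 4 of 4 pairs. The 4 pairs of a day share 2 libraries without BMP2, and this difference between the days was not tested.

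Gfra2, the co-receptor for neurturin, moved in opposite directions with GSK126 in every matched pair, at -1.01 on day 6 (lower in 3 of 3 pairs) and 0.18 on day 1 (higher in 3 of 3 pairs). Of these 6 pairs 3 lie within counting error, with a ratio of 0.867 (0.585 to 1.29) at 50 ng/ml BMP2 on day 6 and 1.03 (0.869 to 1.23) and 1.15 (0.933 to 1.41) at 10 and 50 ng/ml on day 1. The difference was -1.19 ± 0.33 and did not pass (adjusted p = 0.066, edgeR).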

How the results depend on the processing

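No paired analysis was possible because each condition has 1 library and the labels give no replicate numbers, and the matched pairs named above are single libraries of like treatment, not replicates with a shared number. Bdnf and Gfra1 kept their GSK126 calls on day 6 in 17 of 17 alternatives (0.7 to 0.89 for Bdnf, 1.38 to 1.58 for Gfra1). Only the alternative with no filter dropped the expression filter, which Gfra1 passed through GSK126 libraries alone. The other alternatives therefore cannot check the effect of that filter on Gfra1. The 12 alternatives that leave out a library are not separate checks. Leaving out a day 1 library left the values at 0.79 for Bdnf and 1.48 for Gfra1. Leaving out either library of a day 6 matched pair gave nearly the same value. Gfra2 kept its day 6 call in 15 of 17. It was lost in the fit to day 6 alone (-0.98, adjusted p = 0.1) and without the day 6 library given 10 ng/ml BMP2 alone. The Bdnf difference between days was called in 10 of 16 alternatives. The Gfra2 difference was called with DESeq2 (adjusted p = 0.0022) and without any of 4 day 6 libraries. With BMP2 on day 1, Ntrk3 was called by DESeq2 (adjusted p = 0.0094).

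The fit to each day alone moved the counts over all genes most, to 953 with GSK126 on day 6, 1957 with GSK126 on day 1, 1051 with BMP2 on day 6 and 4684 with BMP2 on day 1. The fit to all 12 called 3415, 0, 3463 and 441. DESeq2 called 6 genes with GSK126 on day 1 and 912 with BMP2 on day 1. Leaving out 1 library gave 1845 to 4259 genes for GSK126 on day 6, 0 to 0 for GSK126 on day 1 and 340 to 2623 for the difference of the GSK126 effects (1261 in all 12). It gave 2327 to 4872 for BMP2 on day 6, 1 to 1486 for BMP2 on day 1 and 8586 to 9647 for the days (9407 in all 12). The lowest BMP2 day 1 count came without the day 1 vehicle library. With scaling by library size alone, the median change of all genes was -0.179 between the days and -0.147 with BMP2 on day 6. With TMM these medians were 0.0301 and -0.00168. The calls with library size alone split into 3071 higher and 6235 lower between days (4883 and 4524 with TMM). They split into 807 and 3412 with BMP2 on day 6 (1600 and 1863), and 1843 and 1181 with GSK126 on day 6 (1726 and 1689).

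Reversals occurred when single libraries were left out, in values that were not called. With GSK126 on day 6, Ngfr was 0.25 and 0.24, and Ret -0.04 and -0.03, without the library given GSK126 alone and without the vehicle library of that day, within leave-one-out ranges of -0.88 to 0.25 for Ngfr and -0.04 to 2.83 for Ret. For the difference between days, Ret was -0.36 and -0.35 without these libraries (range -0.36 to 2.51). Ngfr was -0.19 without either day 1 library lacking BMP2 and -0.12 without either day 6 library at 10 ng/ml (range -0.19 to 1.01). Ntrk3 was -0.12 without either day 6 library at 50 ng/ml (range -0.12 to 0.63). Ngfr with BMP2 on day 1 was 0.54 without the vehicle library (range -1.04 to 0.54). The causes were not tested. Over all alternatives, 428 values of called results stayed called in the same direction and 115 were no longer called. Depth limits Ntrk2, Ngfr on day 1, Ret on day 6 and Gfra1, where 1 to 70 pairs stand behind a value.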
